A study of Mus musculus with 6 samples.

Results

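The genes described here carry the names of the protein factors that start and elongate translation in the cytosol. Their symbols also cover regulators and partners, such as inhibitors of initiation and a methyltransferase, and all are called factors below. They were taken from the deposited table of read counts as every gene whose symbol begins with Eif followed by a digit from 1 to 6 or with Eef followed by 1 or 2, leaving out the kinases Eif2ak1 to Eif2ak4 and Eef2k and the names that carry the pseudogene mark -ps. This gave 59 of the 24421 genes in the table. RNA sequencing was run on primary neural stem cells cultured from the subventricular zone, the lining of the lateral ventricles, of wild-type C57BL/6 mice at postnatal day 60. The control group, of 3 libraries, received the solvent DMSO, and the treated group, also of 3 libraries, received 20 µM PluriSIn#2, which the series describes as an inhibitor of topoisomerase IIA, for 3 days. Both groups grew in EGF and FGF2 at 20 ng/ml each, with the medium changed after 24 h, so the treatment is the difference between them that the labels state. The libraries were grouped by their titles, while the treatment field of treated replicates 2 and 3 reads PluriSIn#3 and PluriSIn#4. No source used here says whether the 3 libraries of a group came from separate mice or cultures, so the p-values measure the spread between these libraries, which may be technical.

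Translation of most mRNAs begins when eIF2 carries the initiator methionyl tRNA to the small ribosomal subunit, and eIF4F, a complex of the cap-binding protein eIF4E, the scaffold eIF4G and the helicase eIF4A, brings the mRNA to it. The subunit, held by eIF3, scans to the start codon with eIF1 and eIF1A, the large subunit joins with eIF5B, and elongation then runs on eEF1A, which delivers aminoacyl tRNAs, and eEF2, which moves the ribosome along. In neural stem cells of the subventricular zone, leaving or entering quiescence is known to go with changes in protein synthesis, and mTORC1 signalling and phosphorylation of eIF2 are the main switches on the factors themselves.

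The libraries held between 16670962 and 19241869 counts. Levels are in CPM, which sets each count against the size of its library after TMM scaling in edgeR. Levels of different genes are mostly compared in FPKM, the authors' deposited values per gene length and library size. Sums over families and lists, the group of genes of at least 50 CPM, a correlation and the choice of each family's most abundant member use CPM, without gene length. Fold changes are edgeR's fitted log2 values of PluriSIn#2 over DMSO, given ± standard error, while ± after a mean level is the SD over 3 libraries, and a gene was called when its adjusted p, by the quasi-likelihood F test of edgeR and the Benjamini-Hochberg method across 14417 genes that passed its filter, was under 0.05. Top2a encodes the enzyme that the compound is described to inhibit and is high in cycling cells, and its level was 853, 887 and 892 CPM with DMSO and 5.58, 7.46 and 4.98 CPM with PluriSIn#2. This is a check of the culture's response and not of enzyme activity. The 6 proliferation markers together stood at 2867 to 2917 CPM in DMSO and 69.3 to 77.1 CPM in PluriSIn#2, and the 10 neural stem cell markers at 8848 to 8913 and 7754 to 7803 CPM, with 3 called higher (Vim, Slc1a3 and Msi1) and 7 lower. Markers of other cell types moved too: all 8 macrophage markers tested of 10 listed were called higher (summed level 7.37 to 8.0 CPM in DMSO and 152 to 159 CPM in PluriSIn#2, with Trem2 at 0 in DMSO), as were 8 of 9 fibroblast and mural markers (33.7 to 35.3 and 235 to 240.1 CPM) and 5 of 6 endothelial markers (3.88 to 4.65 and 26.1 to 29.4 CPM). These marker levels differ between the same libraries as every difference given below, and their part in it was not tested. In bulk RNA, fewer cells of a type and less RNA per cell cannot be told apart.

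Transcripts of the translation factors were mostly lower in the treated cells. Of the 59 genes, 56 had reads and all of these were tested, while Eif3j1, Eif3j2 and Eif4e1b had no read in any library. Of the 56, 44 were called lower (78.6%, against 40.9% of all genes tested) and 9 were called higher (16.1%, against 41.7% of all genes tested), while Eif5, Eif6 and Eef2kmt were not called. The 3 treated libraries all lay below the 3 DMSO libraries for 44 of the genes (40.9% of all genes tested did so) and all above for 8 (41.8% of all genes tested). The changes were small: the median log2 fold change was -0.46, with quartiles of -0.63 and -0.16, where all genes tested had a median of 0.01. A fall of at least 2-fold that passed the test was found for 3 factors, Eif4b, Eif5a and Eif4ebp2 (11.7% of all genes tested fell this far), and a rise of at least 2-fold for 3, Eef1a2, Eif4e3 and Eif2s3y (16.3% of all genes tested).

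**Figure D1:**
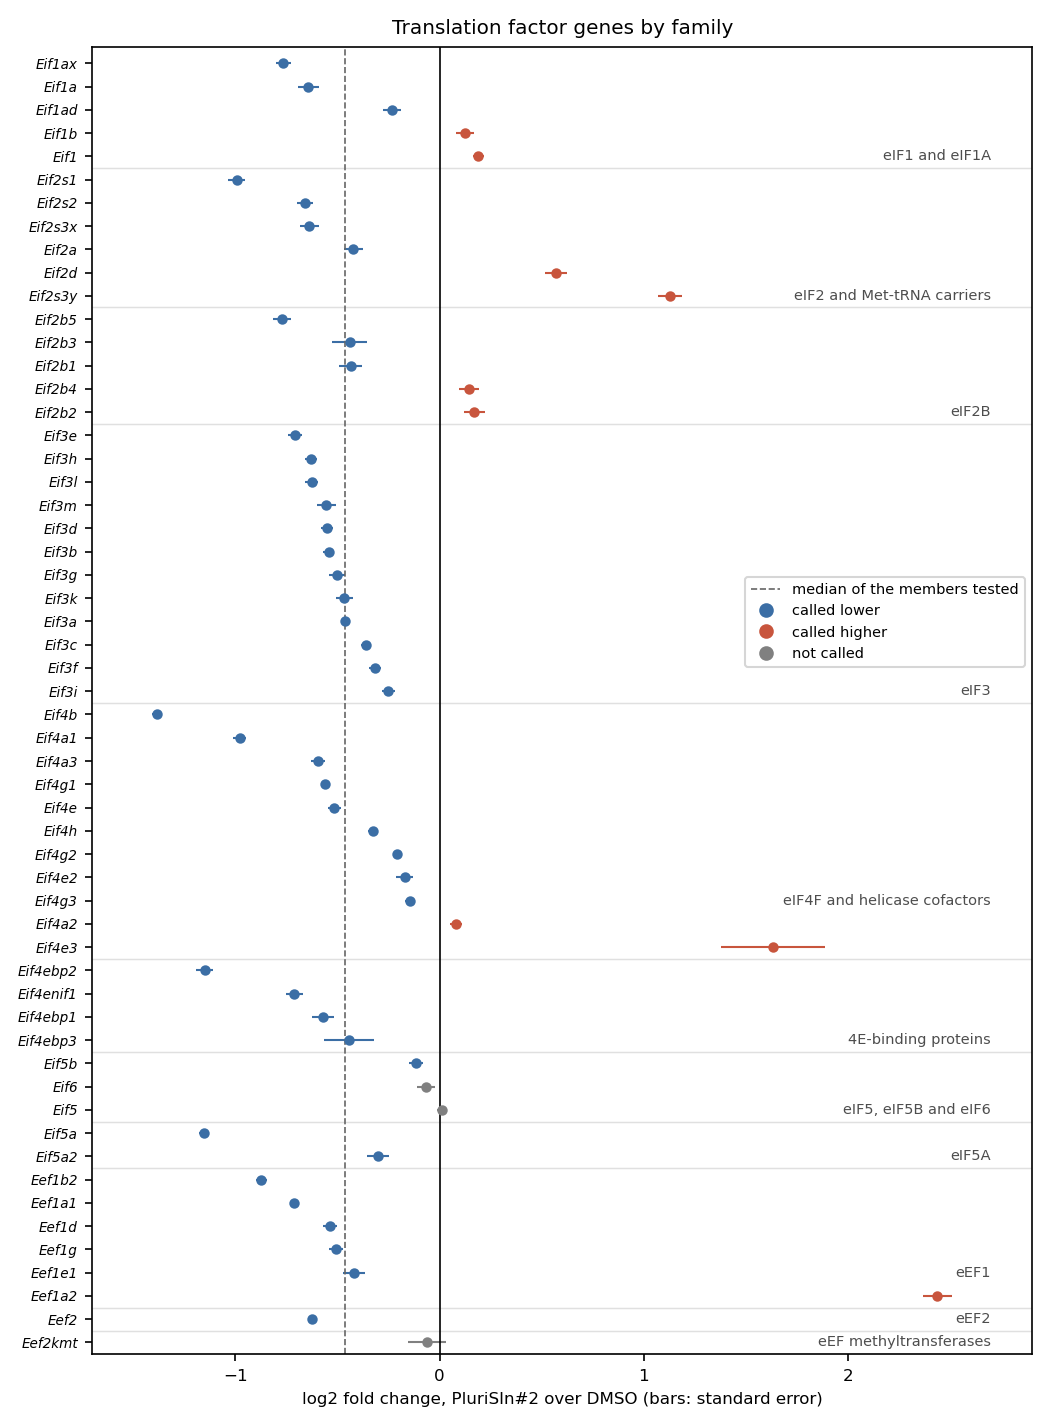
Log2 fold change of each of the 56 translation factor genes with reads (horizontal axis, PluriSIn#2 over DMSO, points with standard errors), grouped by family from top to bottom. Blue points were called lower, red points higher and grey points not called, and the dashed line marks the median of -0.46.

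Because the factors include some of the most abundant mRNAs of the cell, their sum was compared as well. Together the 59 genes took 2.03% ± 0.0206 of all counts in DMSO and 1.46% ± 0.00610 in PluriSIn#2 (SD, n = 3 per group). On the CPM scale the sum was 20823 ± 226 in DMSO and 14296 ± 47.8 in PluriSIn#2, and the groups did not overlap (two-sided exact permutation p = 0.1, the smallest that 3 against 3 libraries allow). Without Eef1a1, the most abundant of them, the sum was 14703 ± 69.9 and 10558 ± 16.5 CPM. The lower share was thus also seen in the sum of the other genes.

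Abundant genes of these libraries tended to be lower in general, which gives the members' count its scale. Of the 5171 genes of at least 50 CPM, 53.0% were called lower and 37.1% higher, with a median of -0.12. Other parts of the translation machinery were lower as well: 71 of 81 tested genes of cytosolic ribosomal proteins were called lower and 3 higher (median -0.66), and of the 20 cytosolic aminoacyl-tRNA synthetases, the enzymes that charge tRNAs, 19 were lower and 1 higher (median -0.59). Across the 56 factors, the fold change ran against the level, with a Spearman coefficient of -0.32 for mean CPM and -0.30 for mean FPKM. This is a description over genes measured in the same libraries, and the fold change and the level share their counts.

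**Figure D2:**
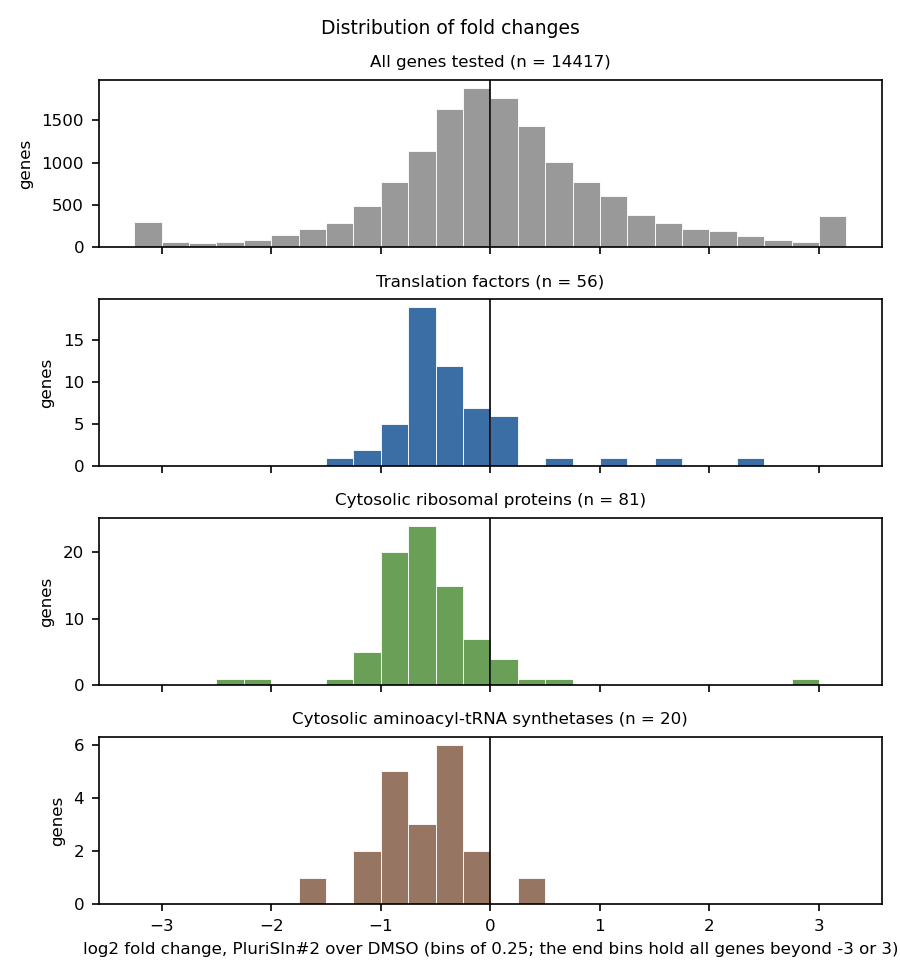
Number of genes (vertical axes) by log2 fold change of PluriSIn#2 over DMSO in bins of 0.25 (horizontal axis), for all 14417 genes tested, the 56 translation factors, 81 cytosolic ribosomal protein genes and 20 cytosolic aminoacyl-tRNA synthetases. All genes centre near 0 (median 0.01), and the other 3 groups have medians of -0.46, -0.66 and -0.59.

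The promoters of the factors are shown because most members moved in one direction and because of Myc, a gene added after its values were seen. Myc, whose protein with MAX binds the E-box CACGTG and drives many genes of translation, was itself lower, at 99.1, 92.3 and 91.3 CPM in the controls and 41.2, 44.5 and 45.4 CPM after treatment with a log2 fold change of -1.11 ± 0.0461 (edgeR adjusted p = 1.88e-38). RefSeq promoters of GRCm38.p6, from 250 bases before to 50 bases after a start, were matched by symbol for 45 of the 59 members, of which 44 were tested. The letters CACGTG, which read the same on both strands, occurred in 25% of these 44 (11 genes) and in 11.4% of the 10891 tested genes with a promoter. Counted per promoter, they occurred in 7.15% of all 32851. A gene counted when any of its starts had a match, and the 45 members had 57 starts. Shares per gene and per promoter are therefore not comparable. The stretches below, 6 of those outside annotated exons, carry the match in capitals with 30 bases on either side, 5′ to 3′ on the gene's strand:
Eif5a: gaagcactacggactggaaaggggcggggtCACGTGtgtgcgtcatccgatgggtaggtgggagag
Eif4a1: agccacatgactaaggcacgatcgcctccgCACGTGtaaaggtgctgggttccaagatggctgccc
Eif4g1: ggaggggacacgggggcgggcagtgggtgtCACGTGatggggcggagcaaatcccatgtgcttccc
Eef2: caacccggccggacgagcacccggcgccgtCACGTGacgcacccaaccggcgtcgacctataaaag
Eif3k: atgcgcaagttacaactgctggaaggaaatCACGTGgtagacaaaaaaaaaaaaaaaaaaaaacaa
Eif3f: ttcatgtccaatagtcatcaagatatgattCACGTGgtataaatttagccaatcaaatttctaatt
They lie at chr11:69921425-69921490 (minus strand), chr11:69672577-69672642 (minus), chr16:20672643-20672708 (plus), chr10:81176558-81176623 (plus), chr7:28981897-28981962 (minus) and chr7:108934317-108934382 (plus), in that order. All 6 of these genes were called lower, beside 78.6% of all members tested. The stretches shown do not include that of Eif1b, which was called higher. Of the 11 with the motif, 10 were lower and 1, Eif1b, was higher, with a median of -0.47, and of the 33 without it 24 were lower and 7 higher, with a median of -0.44. The medians with and without the motif therefore lay close together. A match is a description of these letters and does not show binding, and overlap with the other motifs searched was not considered.

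The factors of start codon selection moved in both directions. Eif1, whose protein guards against initiation at wrong codons, stood at 198, 202 and 212 CPM in the DMSO libraries and 234, 233 and 230.3 CPM in the treated ones, a log2 fold change of 0.19 ± 0.0287 (edgeR adjusted p = 6.01e-09). Its paralogue Eif1b stood at 74.2, 69.5 and 71.6 CPM with DMSO and 77.5, 78.8 and 78.5 CPM with PluriSIn#2 (log2 fold change 0.12 ± 0.0421, edgeR adjusted p = 0.00526). The treated libraries lay above the controls for both genes. About 19.2% of the 50-base words in the exons of Eif1 also occur in other genes, so its counts are uncertain. The call of Eif1b ended without DMSO replicate 2 (adjusted p = 0.0563) and with treated replicate 1 alone (0.113), and one of its exons overlaps D830035M03Rik on the other strand. The share of Eif1b in the FPKM of the pair was 33.1, 31.3 and 30.9% in the DMSO libraries and 30.4, 30.8 and 31% in the treated ones, so the groups overlapped (two-sided exact permutation p = 0.2).

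The genes of eIF1A, which keeps the small subunit open for scanning, were lower. Eif1ax, on the X chromosome, stood at 134, 139 and 142 CPM in the controls and 87.2, 77.1 and 79.9 CPM after treatment, a log2 fold change of -0.76 ± 0.0381 (edgeR adjusted p = 5.44e-33). Eif1a was at 54.7, 55 and 59.8 CPM in the DMSO libraries and 35.6, 35.7 and 37.3 CPM in the treated ones (log2 fold change -0.64 ± 0.053, edgeR adjusted p = 1.29e-19). The share of Eif1a in their summed FPKM was 11.6, 11.3 and 11.9% in the DMSO libraries and 11.6, 13 and 13.1% in the treated ones, again with overlap (exact permutation p = 0.2). Eif1ad, which encodes an eIF1A-like protein, fell from 72.6 to 61.8 CPM on average (log2 fold change -0.23 ± 0.0442, edgeR adjusted p = 1.83e-06). The family sum was 543 ± 11.8 CPM in DMSO and 490.2 ± 6.75 CPM in PluriSIn#2, with the higher Eif1 and Eif1b and the lower eIF1A genes in opposite directions.

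Of the 6 genes of eIF2 and of the other carriers of initiator tRNA, 4 were lower and 2 higher (66.7% and 33.3%). Beside this and the family counts that follow, 40.9% of all genes tested were called lower and 41.7% higher. All treated libraries lay below all controls for 40.9% of all genes tested and above for 41.8%. Eif2s1, which encodes the alpha subunit whose phosphorylation shuts down most initiation, stood at 132, 129 and 141 CPM with DMSO and 66.9, 70.3 and 64.4 CPM with PluriSIn#2. Its log2 fold change was -0.99 ± 0.0394 (edgeR adjusted p = 6.07e-40), the largest fall of the family and close to a halving. Eif2s2, the beta subunit, stood at 118, 115 and 119 CPM in the controls and 73.1, 74.8 and 75.1 CPM after treatment (log2 fold change -0.66 ± 0.0381, edgeR adjusted p = 1.16e-28), and per length it had the highest level of the family in DMSO, at 44.7 ± 0.582 FPKM. Both genes were lower in all treated libraries.

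The gamma subunit, which holds GTP and the tRNA, is encoded by 2 genes in the mouse, Eif2s3x on the X and Eif2s3y on the Y chromosome, and these moved in opposite directions. Eif2s3x stood at 75.4, 77.8 and 75.8 CPM in the DMSO libraries and 49.2, 50.5 and 47.3 CPM in the treated ones (log2 fold change -0.64 ± 0.0458, edgeR adjusted p = 5.93e-23). Eif2s3y stood at 24.2, 22.6 and 25.5 CPM with DMSO and 50.9, 55 and 52.2 CPM with PluriSIn#2 (log2 fold change 1.13 ± 0.0591, edgeR adjusted p = 1.80e-31). Neither gene's groups overlapped. Per length, the share of Eif2s3y in the summed FPKM of the pair was 39.4, 37 and 40.5% in the DMSO libraries and 67.7, 68.8 and 69.1% in the treated ones, so the Y copy was the smaller part in every control and the larger in every treated library (exact permutation p = 0.1, Benjamini-Hochberg 0.125 over the 10 paralogue pairs compared, the lowest this design allows when 8 of 10 reach the minimum).

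The starts of both genes are shown because mRNAs that begin with a C followed by a run of C and T are a class whose translation mTORC1 controls, and many factor genes have such a start. Each stretch covers 30 bases around the RefSeq start with the tract in capitals:
Eif2s3x: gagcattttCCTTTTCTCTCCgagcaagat
Eif2s3y: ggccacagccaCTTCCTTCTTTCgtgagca
The first lies at chrX:94212632-94212661 (minus strand) and the second at chrY:1010585-1010614 (plus strand), with 10 bases before the start in each. A tract of C followed by at least 7 C or T within 25 bases of a start, read on the gene's strand, occurred in 27.3% of the 44 members and in 20.7% of the 10891 tested genes. Counted per promoter, which is not comparable with the shares per gene, it occurred in 17.0% of all promoters. The 12 members with such a tract had a median log2 fold change of -0.53 and the 32 others -0.43. The rule does not test whether an mRNA begins with the tract. These medians therefore do not compare mRNAs of the class that mTORC1 controls with other mRNAs. Both gamma genes have a tract near the RefSeq start, and they moved apart. The tract of Eif2s3x spans that start, while the first base of Eif2s3y is an a directly before its tract. In GENCODE both genes begin further upstream, at chrX:94212862 and chrY:1010543, so it is uncertain whether their mRNAs begin with the tract. The ATF4 response element, TGATGNAA on either strand, was found in 1 member, Eif2s3x (2.27% of members and 2.75% of tested genes).

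Other genes of the sex chromosomes give these values their setting, and were chosen after the values were seen. Xist, the RNA of the inactive X chromosome, stood at 1192, 1233 and 1220.1 CPM in the controls and 369, 352 and 352 CPM after treatment, so transcripts of both Xist and the Y chromosome were present in all 6 libraries. Of the other Y-linked genes, Ddx3y stood at 26.4, 26 and 30.7 CPM in the DMSO libraries and 48.6, 49 and 49.8 CPM in the treated ones (log2 fold change 0.82 ± 0.0591, edgeR adjusted p = 5.51e-23) and Uty at 12.5, 12.3 and 12 CPM with DMSO and 16.5, 15.5 and 14.6 CPM with PluriSIn#2 (log2 fold change 0.34 ± 0.091, edgeR adjusted p = 4.56e-04). Kdm5d stood at 23, 20.7 and 23.9 CPM in the controls and 25.9, 21.5 and 22.5 CPM after treatment and was not called (log2 fold change 0.05 ± 0.0747, edgeR adjusted p = 0.557). Their X-linked partners Ddx3x (-0.72), Kdm6a (-0.69) and Kdm5c (-0.63) were all called lower, as was Xist (log2 fold change -1.76 ± 0.0221, edgeR adjusted p = 1.12e-78). Eif2s3y thus rose together with 2 of 3 other Y-linked genes, and the part of a changed mix of male and female cells was not tested.

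**Figure D3:**
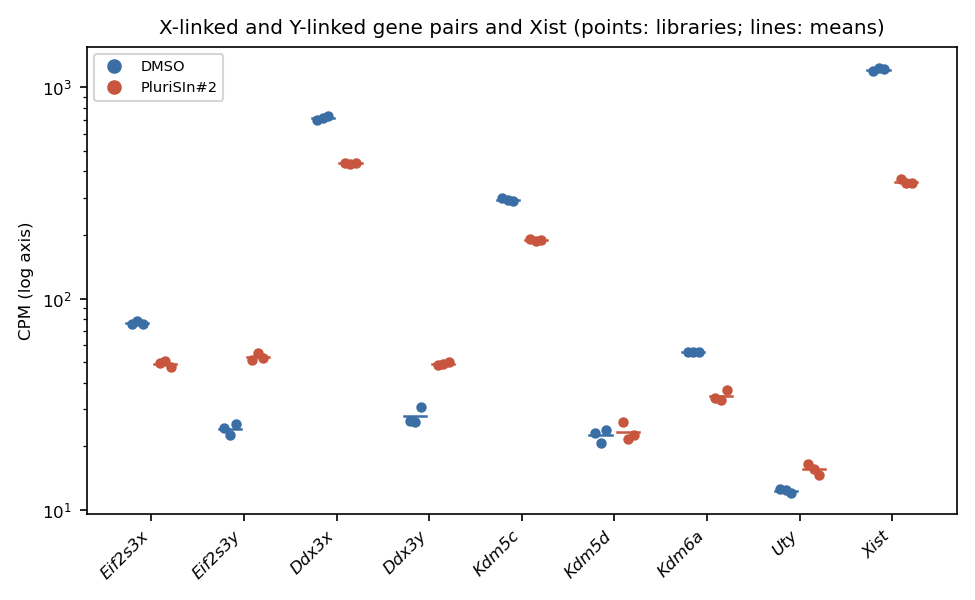
CPM (log axis) of Eif2s3x and Eif2s3y, of 3 other X-linked and Y-linked gene pairs and of Xist in each library (points, blue DMSO, red PluriSIn#2) with group means (lines). The X-linked genes and Xist are lower in the treated libraries, Eif2s3y, Ddx3y and Uty are higher, and Kdm5d overlaps between groups.

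The sum of the gamma genes depended on the scale. In FPKM it was 33.4 ± 0.491 in DMSO and 43.6 ± 1.46 in PluriSIn#2, a log2 change of 0.38 without overlap (exact permutation p = 0.1). In CPM, which does not divide by length, the log2 change was 0.02 with an exact permutation p of 0.9. The ratio of gamma to alpha FPKM was 0.829, 0.842 and 0.795 in the DMSO libraries and 2.0, 2.02 and 2.09 in the treated ones, and its log2 change was 1.31 in FPKM and 1.01 in CPM (exact permutation p = 0.1 for both). The rise of the ratio was therefore seen on both scales. These ratios were chosen after the values were seen. About 34.6% of the 50-base words in the exons of Eif2s3x also occur in Gm2223, so its counts are uncertain, while none in Eif2s3y are shared.

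Eif2a and Eif2d encode proteins that can bring tRNA to the ribosome outside the eIF2 route. Eif2a fell from 70.9 to 52.9 CPM (log2 fold change -0.42 ± 0.047, edgeR adjusted p = 1.44e-13). Eif2d, whose protein also takes part in recycling ribosomes, stood at 39, 33.5 and 35.4 CPM in the DMSO libraries and 52.3, 55.6 and 52.2 CPM in the treated ones and rose on the log2 scale by 0.57 ± 0.0547 (edgeR adjusted p = 2.35e-16). All 3 treated libraries were above the controls for Eif2d, whose exons overlap those of Rassf5 on the other strand.

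The 5 subunits of eIF2B, which reloads eIF2 with GTP and is blocked by phosphorylated eIF2, split by subunit. Eif2b5, the catalytic epsilon subunit, stood at 95.9, 95.1 and 90.8 CPM with DMSO and 58.3, 53.3 and 53.3 CPM with PluriSIn#2, a log2 fold change of -0.77 ± 0.0436 (edgeR adjusted p = 2.38e-29). Eif2b1 (alpha) fell from 47.2 to 34.9 CPM (log2 fold change -0.44 ± 0.0554, edgeR adjusted p = 2.54e-11) and Eif2b3 (gamma) from 21 to 15.4 CPM (log2 fold change -0.44 ± 0.0847, edgeR adjusted p = 2.37e-06). The other two subunits were slightly higher. Eif2b2 (beta) stood at 47, 45.7 and 46.9 CPM in the controls and 52.6, 55.3 and 49.1 CPM after treatment (log2 fold change 0.17 ± 0.0512, edgeR adjusted p = 0.0018) and Eif2b4 (delta) rose from 48.7 to 53.7 CPM (log2 fold change 0.14 ± 0.0499, edgeR adjusted p = 0.00667), with no overlap for either. Per length, Eif2b5 had the highest level of the 5 in DMSO and Eif2b2 in PluriSIn#2: Eif2b5 was at 35.2 ± 1.07 FPKM in DMSO and 21.6 ± 1.14 FPKM in PluriSIn#2, and Eif2b2 at 28.3 ± 0.393 FPKM in DMSO and 33.4 ± 1.98 FPKM in PluriSIn#2. Exons of Eif2b4 overlap Snx17 on the other strand.

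The kinases and phosphatase subunits that act on eIF2 and eEF2 gave 1 higher and 5 lower of 7 genes. For this and the lists that follow, the shares over all genes tested are 41.7% higher and 40.9% lower. Ppp1r15a, the inducible subunit that directs dephosphorylation of eIF2 alpha and is known as GADD34, stood at 21.4, 23.2 and 23.9 CPM in the DMSO libraries and 46.6, 42.7 and 44 CPM in the treated ones (log2 fold change 0.96 ± 0.0622, edgeR adjusted p = 1.60e-25). Its constitutive counterpart Ppp1r15b fell from 168 to 120.5 CPM (log2 fold change -0.48 ± 0.0323, edgeR adjusted p = 1.95e-24). Among the eIF2 kinases, Eif2ak4 (GCN2, which senses uncharged tRNA) had a log2 fold change of -0.51, Eif2ak3 (PERK, of the endoplasmic reticulum) of -0.38 and Eif2ak1 (HRI, which senses haem) of -0.14, all called lower, and Eif2ak2 (PKR, which senses double-stranded RNA) was not called (log2 fold change 0.08 ± 0.0596, edgeR adjusted p = 0.186). Eef2k, the kinase that inhibits eEF2, stood at 91, 89.4 and 90.6 CPM with DMSO and 58.8, 62 and 60.9 CPM with PluriSIn#2 (log2 fold change -0.58 ± 0.0421, edgeR adjusted p = 1.54e-22). These are transcript levels and say nothing of kinase activity or of phosphorylation.

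Of 15 listed genes of ATF4, the factor translated when eIF2 is phosphorylated, and its stress targets, 5 were higher and 7 lower (33.3% and 46.7%), near the shares over all genes tested. Atf4 itself stood at 187, 194 and 186 CPM in the controls and 183, 190.0 and 185 CPM after treatment, with overlap (log2 fold change -0.02 ± 0.0299, edgeR adjusted p = 0.46). Ddit3, which encodes the stress factor CHOP, stood at 9.57, 9.28 and 8.9 CPM in the DMSO libraries and 50.7, 49.7 and 48.7 CPM in the treated ones (log2 fold change 2.43 ± 0.0727, edgeR adjusted p = 5.65e-49). Asns, asparagine synthetase, stood at 70.8, 71.8 and 72.2 CPM with DMSO and 15.7, 14.3 and 13.2 CPM with PluriSIn#2 (log2 fold change -2.31 ± 0.0612, edgeR adjusted p = 3.85e-53). The median of the list was -0.02, beside 0.01 for all genes tested.

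All 12 detected subunits of eIF3, the scaffold on the small subunit, were lower, by a narrow range of amounts. The log2 fold changes ran from -0.71 for Eif3e to -0.25 for Eif3i with a median of -0.52, and their SD was 0.135, where the median standard error of a subunit was 0.0314 and the SD over all 56 factors was 0.626. The spread among subunits was thus larger than the error of a single one. Eif3a, the largest subunit and the one with the most counts, stood at 613, 616 and 617 CPM in the controls and 447, 455 and 439 CPM after treatment (log2 fold change -0.46 ± 0.0224, edgeR adjusted p = 1.10e-33). Eif3e stood at 167, 175 and 181 CPM in the DMSO libraries and 109, 106 and 104 CPM in the treated ones (log2 fold change -0.71 ± 0.034, edgeR adjusted p = 3.52e-34).

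The other subunits of the core that bind RNA or hold the complex together were Eif3b, which fell from 374 to 256 CPM (-0.54), Eif3c (-0.36), Eif3g (-0.50) and Eif3i, which stood at 156, 158 and 157 CPM with DMSO and 128, 131 and 137 CPM with PluriSIn#2 (log2 fold change -0.25 ± 0.0327, edgeR adjusted p = 5.78e-11). Of the outer subunits, Eif3h, which had the highest FPKM of the family in DMSO, stood at 219, 222 and 227 CPM in the controls and 148, 139.9 and 144 CPM after treatment (log2 fold change -0.63 ± 0.0303, edgeR adjusted p = 5.77e-34). Eif3l changed by -0.63, Eif3m by -0.55, Eif3k by -0.47 and Eif3f by -0.32, and Eif3d, a subunit that can itself bind the cap of some mRNAs, by -0.55. Of the 50-base words in the exons, 20.3% for Eif3h and 17.2% for Eif3m also occur in other genes, so both counts are uncertain. Every one of the 12 had all treated libraries below all controls. Per length their levels lay close together: the highest subunit was 2.54 times the lowest in DMSO and 2.42 times in PluriSIn#2. Their summed level was 2808 ± 20.7 CPM in DMSO and 2009 ± 10.5 CPM in PluriSIn#2. No read was counted for Eif3j1 or Eif3j2, the copies of the loosely bound j subunit. Of the 50-base words of Eif3j2, 90.8% also occur in Eif3j1, but only 36.6% of those of Eif3j1 occur in Eif3j2. These zeros are uncertain, and their cause was not tested.

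The eIF4 group, with 9 of 11 detected genes lower and 2 higher, held the largest fall. Eif4b, which encodes a cofactor that raises the activity of the helicase eIF4A, stood at 498, 502 and 498 CPM in the DMSO libraries and 193, 194 and 187 CPM in the treated ones. It fell 2.61-fold, a log2 fold change of -1.38 ± 0.0256 (edgeR adjusted p = 2.42e-65), with a wide gap between the groups, and its place among the 56 genes by FPKM went from 15 to 28. Eif4h, a smaller cofactor of the same helicase, fell from 429 to 342 CPM (log2 fold change -0.33 ± 0.0246, edgeR adjusted p = 7.91e-22). By GENCODE M21 on GRCm38, the source of all gene positions here, Eif4b lies at chr15:102073773-102097173 (plus strand).

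The helicase genes parted. Eif4a1 stood at 265, 248 and 270.1 CPM with DMSO and 137, 133 and 128 CPM with PluriSIn#2, a log2 fold change of -0.98 ± 0.0312 (edgeR adjusted p = 5.52e-47). Eif4a2 stood at 237, 255 and 258 CPM in the controls and 268, 252 and 273 CPM after treatment and overlapped between the groups, although its small rise passed the test (log2 fold change 0.08 ± 0.0289, edgeR adjusted p = 0.00985). That call ended in DESeq2 (adjusted p = 0.0506), without DMSO replicate 1 (0.233) and without treated replicates 1 (0.0683) or 3 (0.128). Of the summed FPKM of both, Eif4a2 made up 34.9, 38.2 and 36.4% in the DMSO libraries and 53.9, 53 and 56% in the treated ones, so the order of the pair was exchanged in every treated library (exact permutation p = 0.1). Their summed FPKM was 209 ± 5.90 in DMSO and 155 ± 3.71 in PluriSIn#2. About 28.4% of the 50-base words of Eif4a1 occur in other genes or pseudogenes. Within Eif4a2 lie snoRNA genes, and its exons overlap Rfc4 on the other strand, so both counts are uncertain. Eif4a3, the related helicase of the exon junction complex, fell from 137 to 90.6 CPM (log2 fold change -0.60 ± 0.0354, edgeR adjusted p = 6.06e-28). Of the 50-base words of Eif4a3, 16.5% occur in other genes.

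The scaffolds fell by unequal amounts. Eif4g1 stood at 1025, 1013 and 1011 CPM in the DMSO libraries and 697, 688 and 680.1 CPM in the treated ones (log2 fold change -0.56 ± 0.0204, edgeR adjusted p = 8.23e-43), and Eif4g3 at 354, 353 and 357 CPM with DMSO and 322, 324 and 315 CPM with PluriSIn#2 (log2 fold change -0.15 ± 0.0248, edgeR adjusted p = 1.40e-07). Eif4g2, which encodes DAP5, a related protein that lacks the site for eIF4E and was the most abundant of the eIF4 genes, stood at 1723, 1792 and 1794 CPM in the controls and 1536, 1515 and 1544 CPM after treatment (log2 fold change -0.21 ± 0.0186, edgeR adjusted p = 7.04e-18). The treated libraries lay below the controls for all 3. Of the FPKM of Eif4g1 and Eif4g3, the latter made up 23.1, 23.3 and 23.5% in the DMSO libraries and 28.7, 29.1 and 28.8% in the treated ones, without overlap (exact permutation p = 0.1).

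Among the cap-binding proteins, Eif4e stood at 194, 208 and 206 CPM in the DMSO libraries and 144, 138 and 144 CPM in the treated ones (log2 fold change -0.52 ± 0.0315, edgeR adjusted p = 3.59e-27). Eif4e2, whose protein binds the cap without eIF4G and represses translation, stood at 89.9, 85.2 and 92.3 CPM with DMSO and 79.6, 83.4 and 74.4 CPM with PluriSIn#2 (log2 fold change -0.17 ± 0.0416, edgeR adjusted p = 1.43e-04). On the authors' FPKM with limma, this call ended (adjusted p between 0.0863 and 0.113). Beside Eif4e, its share of the summed FPKM was 28.2, 25.8 and 27.5% in the DMSO libraries and 32, 34 and 30.4% in the treated ones, without overlap. Eif4e3, an atypical cap-binding protein, was close to the limit of detection at 1.12, 0.45 and 1.49 CPM in the controls and 3.44, 3.4 and 2.75 CPM after treatment, with the treated libraries above the controls (log2 fold change 1.63 ± 0.257, edgeR adjusted p = 1.95e-08). Its own share beside Eif4e was 0.69, 0.279 and 0.823% in the DMSO libraries and 2.67, 2.75 and 2.14% in the treated ones. This share is uncertain, since its counts and FPKM imply a gene length of 2427 bases in DMSO and 2564 bases in PluriSIn#2. Over the settings tried the log2 fold change of Eif4e3 ran from 0.71 to 2.01. The lowest, under 2-fold, came with limma on log2 FPKM with a pseudocount of 1, and the highest without DMSO replicate 3. A count of 3 corresponds to 0.156 to 0.180 CPM, and exons of Eif4e3 overlap Gm20696 on its own strand. Eif4e1b, known from oocytes, had no read, and the 5 oocyte markers listed summed to 0.056 to 0.533 CPM in DMSO and 0.384 to 0.586 CPM in PluriSIn#2. Of these, Zp3 and Oosp1 were at 0 in all libraries, while Gdf9 had up to 9 counts in a library, Zp2 had 2 counts in a single treated library and Nobox 1 count in each.

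**Figure D4:**
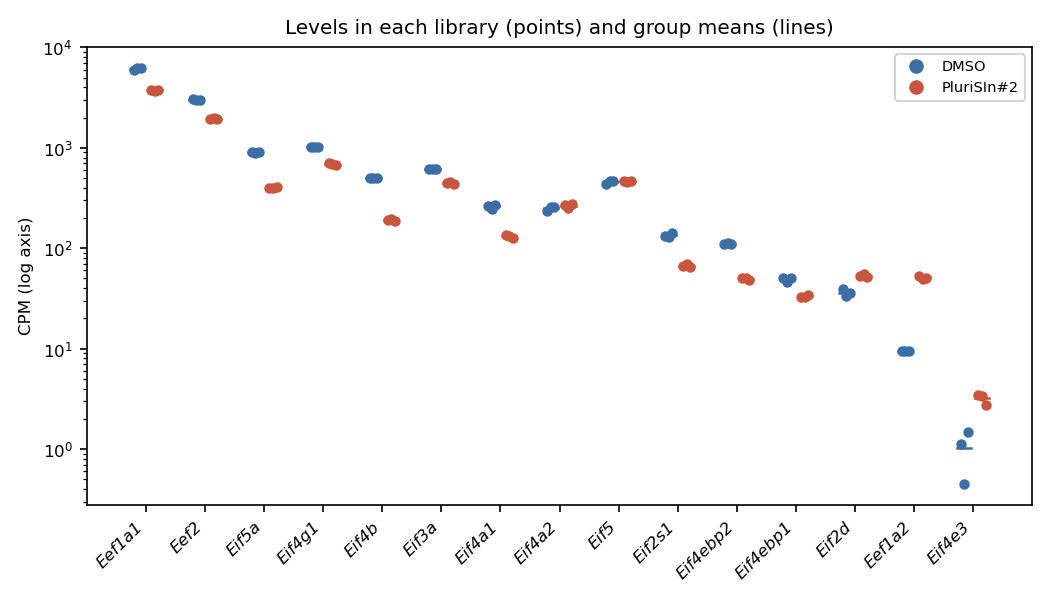
CPM (log axis) of 15 translation factor genes in each library (points, blue DMSO, red PluriSIn#2) with group means (lines). Eif4b, Eif5a, Eif4a1, Eif2s1 and Eif4ebp2 show the widest gaps downward, Eif4a2 and Eif5 overlap, and Eif2d, Eef1a2 and Eif4e3 are higher in the treated libraries.

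All 4 genes of proteins that bind eIF4E in place of eIF4G were lower. Eif4ebp2, the form that is prominent in brain, stood at 110.0, 111 and 110.0 CPM in the DMSO libraries and 50.7, 50.2 and 48.3 CPM in the treated ones (log2 fold change -1.15 ± 0.0419, edgeR adjusted p = 1.25e-42). Eif4ebp1 stood at 50.9, 46.6 and 50.2 CPM with DMSO and 33, 32.6 and 33.8 CPM with PluriSIn#2 (log2 fold change -0.57 ± 0.0555, edgeR adjusted p = 4.60e-16). The fall of Eif4ebp2 was the larger, and its share of their summed FPKM was 54.3, 56.8 and 54.6% in the DMSO libraries and 45.8, 45.8 and 43.9% in the treated ones. Eif4ebp3 fell from 8.81 to 6.48 CPM (log2 fold change -0.44 ± 0.123, edgeR adjusted p = 7.69e-04), a call that ended with treated replicate 1 alone (0.119), and 65.5% of its 50-base words occur in AC115631.1, so its counts are uncertain. Eif4enif1, whose protein carries eIF4E into the nucleus and to sites of mRNA decay, fell from 95.6 to 58.4 CPM (log2 fold change -0.71 ± 0.0418, edgeR adjusted p = 3.28e-28).

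Because Eif4e fell with its inhibitors, their ratio was computed, a choice made after the values were seen. The summed FPKM of Eif4ebp1, Eif4ebp2 and Eif4ebp3 over that of Eif4e was 1.81, 1.66 and 1.72 in the DMSO libraries and 1.39, 1.44 and 1.36 in the treated ones. The groups did not overlap, and the log2 change was -0.31 in FPKM and -0.40 in CPM (exact permutation p = 0.1 for both). These are ratios of mRNA, not of protein or of its phosphorylated forms. Of 20 listed genes of mTORC1, the kinase complex that phosphorylates the 4E-BPs, and of cap-dependent control, 6 were higher and 9 lower, or 30% and 45%, near the shares over all genes tested, with a median of -0.06. Pdcd4, an inhibitor of eIF4A, stood at 59.3, 57.5 and 55.5 CPM in the controls and 99.5, 99 and 96.6 CPM after treatment (log2 fold change 0.78 ± 0.042, edgeR adjusted p = 1.29e-30). Rps6kb1, the S6 kinase, stood at 96.5, 100.4 and 104 CPM in the DMSO libraries and 57.3, 53.5 and 54.2 CPM in the treated ones (log2 fold change -0.87 ± 0.0428, edgeR adjusted p = 2.89e-33).

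The poly(A)-binding proteins, which join the tail of the mRNA to eIF4G, and their partners gave 1 higher and 4 lower of 6. Pabpc1, the main one, stood at 634, 636 and 636 CPM with DMSO and 372, 376 and 376 CPM with PluriSIn#2 (log2 fold change -0.76 ± 0.0226, edgeR adjusted p = 2.54e-49). Paip2, an inhibitor of poly(A)-binding protein, stood at 82.1, 84.1 and 86.2 CPM in the controls and 135, 134 and 135 CPM after treatment (log2 fold change 0.68 ± 0.0362, edgeR adjusted p = 6.36e-31).

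The genes of eIF5, eIF5B and eIF6, which act around the joining of the large subunit, had fold changes close to 0. Eif5, which makes eIF2 hydrolyse its GTP at the start codon, stood at 437, 471 and 470.4 CPM in the DMSO libraries and 469, 456 and 465 CPM in the treated ones and overlapped between groups (log2 fold change 0.01 ± 0.0242, edgeR adjusted p = 0.66, with a 95% interval of the log2 fold change from -0.06 to 0.08). It was called slightly higher when libraries were scaled by their totals alone (0.08, adjusted p = 0.00172), and with limma on log2 FPKM with a pseudocount of 1 (0.08, adjusted p = 0.0471) or 0.1 (0.08, adjusted p = 0.0482). Eif6, which keeps free large subunits apart from small ones, stood at 68.4, 67.6 and 73.5 CPM with DMSO and 65.6, 70.2 and 64.2 CPM with PluriSIn#2 (log2 fold change -0.07 ± 0.0449, edgeR adjusted p = 0.163, interval from -0.19 to 0.06). Eif5b, which joins the subunits, fell from 127 to 118 CPM (log2 fold change -0.12 ± 0.0354, edgeR adjusted p = 0.00197), and the call ended under scaling by totals (0.208), without treated replicate 1 (0.0580) and with limma on FPKM (between 0.403 and 0.434). By FPKM, Eif5 went from place 18 to place 10 among the factors.

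The genes of eIF5A, the only known protein with the amino acid hypusine, which helps ribosomes past stretches that are hard to join, fell by unequal amounts. Eif5a stood at 909.8, 877 and 912 CPM in the controls and 402, 401 and 408 CPM after treatment. It fell 2.23-fold, with a log2 fold change of -1.16 ± 0.022 (edgeR adjusted p = 3.15e-64), and lies at chr11:69916714-69921958 (minus strand). Eif5a2, its paralogue, stood at 45.5, 47.2 and 51.1 CPM in the DMSO libraries and 40, 40.1 and 36.5 CPM in the treated ones (log2 fold change -0.30 ± 0.055, edgeR adjusted p = 6.96e-07). Eif5a remained the third most abundant factor by FPKM, and the share of Eif5a2 in the pair was 1.43, 1.53 and 1.6% in the DMSO libraries and 2.8, 2.81 and 2.52% in the treated ones. Of the 9 enzymes that make hypusine on eIF5A or diphthamide on eEF2, 7 were called lower and 2 were not called. Dph5, of the diphthamide pathway, had the largest fall, at 16.1, 16.6 and 15.8 CPM with DMSO and 7.73, 9.43 and 7.79 CPM with PluriSIn#2 (log2 fold change -0.96 ± 0.0994, edgeR adjusted p = 7.79e-15). Dhps and Dohh, the hypusine enzymes, changed by -0.34 and -0.22.

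**Figure D5:**
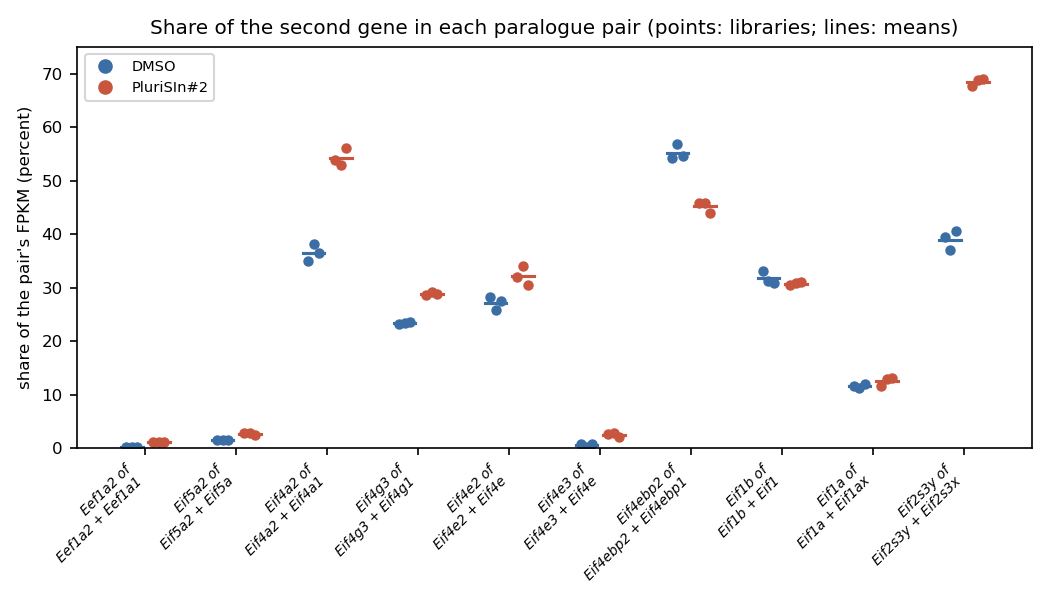
Share of the second-named gene in the summed FPKM of each paralogue pair (vertical axis, percent) in each library (points, blue DMSO, red PluriSIn#2) with group means (lines). The share is higher in the treated libraries for 7 pairs, lower for Eif4ebp2, and overlaps for Eif1b and Eif1a.

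Elongation factor 1 held both the most abundant member and the largest rise. Eef1a1, which delivers aminoacyl tRNAs to the ribosome, stood at 5931, 6172 and 6256 CPM in the controls and 3736, 3680.0 and 3797 CPM after treatment (log2 fold change -0.71 ± 0.0167, edgeR adjusted p = 3.41e-57). Eef1a2, the form that replaces it in mature neurons and muscle, stood at 9.46, 9.39 and 9.44 CPM in the DMSO libraries and 52.9, 49.5 and 51 CPM in the treated ones (log2 fold change 2.44 ± 0.072, edgeR adjusted p = 1.81e-49). The groups were far apart for both genes, in opposite directions, and the rise of Eef1a2 was 5.42-fold. Per length Eef1a2 nevertheless stayed a small part of the pair, with 0.139, 0.133 and 0.132% in the DMSO libraries and 1.22, 1.16 and 1.16% in the treated ones (exact permutation p = 0.1). Its level was 4.41 ± 0.0147 FPKM in DMSO and 25.1 ± 0.874 FPKM in PluriSIn#2, beside 3275 ± 88.2 FPKM in DMSO and 2098 ± 33.9 FPKM in PluriSIn#2 for Eef1a1. The summed FPKM of both was 3279 ± 88.2 in DMSO and 2123 ± 34.3 in PluriSIn#2. Eef1a2 lies at chr2:181147653-181157014 (minus strand) and shares no 50-base word with another gene, whereas 39.4% of those of Eef1a1 occur elsewhere.

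Markers of the cell types known for Eef1a2 were compared beside it. Of 7 neuron markers, 4 were called higher (Stmn2, Rbfox3, Snap25 and Syt1) and 1, Map2, lower, with a summed level of 939 to 988 CPM in DMSO and 479 to 486 CPM in PluriSIn#2, most of it Map2. Stmn2 stood at 8.96, 9.67 and 8.58 CPM with DMSO and 24, 24.6 and 24.1 CPM with PluriSIn#2 (log2 fold change 1.42 ± 0.0877, edgeR adjusted p = 7.29e-27). Of 6 skeletal muscle markers only Mylpf had enough reads to test and it was not called, with a summed level of 0.853 to 1.79 CPM in DMSO and 1.07 to 1.59 CPM in PluriSIn#2. The part of a changed mix of cells in the rise of Eef1a2 was not tested.

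Eef1b2, Eef1d and Eef1g, genes of the complex that recharges eEF1A with GTP, were all lower. Eef1b2 stood at 329, 356 and 347 CPM in the controls and 186, 189 and 188 CPM after treatment (log2 fold change -0.87 ± 0.0278, edgeR adjusted p = 5.62e-47), the largest fall among the eEF1 genes, with exons that overlap Ndufs1 on the other strand. Eef1d fell from 178 to 123 CPM (log2 fold change -0.54 ± 0.0324, edgeR adjusted p = 1.60e-27) and Eef1g from 153 to 108 CPM (log2 fold change -0.51 ± 0.0347, edgeR adjusted p = 4.36e-24), and 44.2% of the 50-base words of Eef1g occur in other genes. Eef1e1, a helper protein of the complex that holds several tRNA synthetases, fell from 51.2 to 38.4 CPM (log2 fold change -0.42 ± 0.0532, edgeR adjusted p = 2.48e-11).

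Eef2, which drives the step of the ribosome along the mRNA and was the second most abundant factor, stood at 3052, 2975 and 2990.0 CPM in the DMSO libraries and 1947, 1965 and 1942 CPM in the treated ones (log2 fold change -0.62 ± 0.0173, edgeR adjusted p = 1.35e-51). All treated libraries were lower, and with Eef1a1 it made up 43.6% to 43.9% of the members' counts in DMSO and 39.6% to 40.0% in PluriSIn#2. Eef2kmt, a methyltransferase that acts on eEF2, stood at 17, 14.3 and 16.4 CPM with DMSO and 14, 13.8 and 18 CPM with PluriSIn#2 and was not called (log2 fold change -0.06 ± 0.0913, edgeR adjusted p = 0.528, interval from -0.32 to 0.19). Its direction depended on the scale, since on FPKM limma called it higher (0.20, adjusted p = 0.0291), and its exons overlap Alg1 on the other strand. The gene length that its counts and FPKM imply was 1270 bases in DMSO and 1101 bases in PluriSIn#2, a ratio of 0.867 after the median over the members was set to 1.

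Outside the rule, genes for the end of translation were mostly lower too. Of 9 genes of termination and recycling 6 were lower and 2 higher, with a median of -0.34. Abce1, which splits the finished ribosome, stood at 259, 285 and 279 CPM in the controls and 161, 156 and 156 CPM after treatment (log2 fold change -0.80 ± 0.0301, edgeR adjusted p = 1.60e-41), and Pelo, which rescues stalled ribosomes, at 22.5, 19.9 and 21.5 CPM in the DMSO libraries and 25.6, 24.1 and 26 CPM in the treated ones (log2 fold change 0.24 ± 0.0721, edgeR adjusted p = 0.00151). Mitochondrial translation factors, which serve the separate ribosomes of mitochondria, had 7 higher and 3 lower of 10, with a median of 0.19. Mtrf1, a mitochondrial release factor, stood at 5.82, 5.17 and 5.23 CPM with DMSO and 7.05, 8.61 and 9.31 CPM with PluriSIn#2 (log2 fold change 0.62 ± 0.131, edgeR adjusted p = 1.30e-05), and Gfm2, a mitochondrial recycling factor, at 51.3, 54.4 and 54 CPM in the controls and 43.5, 40.5 and 42.6 CPM after treatment (log2 fold change -0.34 ± 0.0516, edgeR adjusted p = 9.88e-09). No test of the difference between these lists was made.

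By level, the order of the factors was mostly kept. The Spearman coefficient between the groups' mean FPKM over the 56 genes was 0.95, and Eef1a1, Eef2, Eif5a and Eif4g2 were the first to the fourth in both groups. The moves of largest size were those of Eif2s3y, from place 50 to 36, Eef1a2, from 55 to 42, and Eif4b, from 15 to 28. In the order of fold changes, most neighbours could not be told apart: the gap between one gene and the next exceeded 2 standard errors of their difference for 6 of 55 gaps.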

How the data were processed

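RNA of 3 DMSO and 3 PluriSIn#2 libraries was prepared by Illumina protocols, per the labels. The submitters' processing notes name the build mm10 and the tools STAR, HTSeq and DESeq, without roles. In the sources used here, no tool version, annotation, filter or use of strand is given. The deposited counts are whole reads per gene symbol, not normalized. The authors scaled the deposited FPKM by length and depth, and 25 gene names in that table had become dates and were left out. The authors' deposited log2 fold changes and p-values in the same table were not used for any value printed.

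Counts were tested in R 4.3.3 with edgeR 4.0.16 (filterByExpr, TMM, glmQLFit and glmQLFTest on all 6 libraries, two-sided, Benjamini-Hochberg over 14417 genes, threshold 0.05). Depth was 16670962 to 19241869 counts, with TMM factors of 0.975 to 0.978 in DMSO and 1.02 to 1.03 in PluriSIn#2. Replicates differed by more than sampling noise (chi-square per degree of freedom 1.56 to 2.22), so none is a copy of another. Standard errors were taken as the absolute log2 fold change over the square root of the F statistic. Intervals of fold changes are 95% and use the residual degrees of freedom of the 6 libraries, not those of the F test. They can thus be wider than the calls imply: Eif4a2 was called with an interval from -0.0012 to 0.159. Shares of paralogue pairs were compared by exact permutation tests over libraries. Alternatives used DESeq2 1.42.0, and limma 3.58.1 on log2 of the deposited FPKM plus 1 or 0.1. The scripts were tested on simulated data. Sharing of 50-base words and overlap of exons were taken from GENCODE M21, and promoters from RefSeq.

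Any member could be named. Values in every library are given for paralogue pairs, for each family's most abundant member by mean CPM, for its largest called rise and fall at 5 CPM or more, and for called changes of at least 1 on the log2 scale at that level; of the other lists, for the largest called rise and fall. The members and lists were chosen with earlier results of these data known.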

Additional observations from a re-analysis of the deposited data

How the results depend on the processing

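Over the settings tried, 8 to 11 members were called higher and 42 to 44 lower, and their median log2 fold change lay between -0.39 and -0.49. Gene by gene, scaling by library totals raised the log2 fold change by a median of 0.07 over all genes, and limma on FPKM with a pseudocount of 1 also by a median of 0.07. With a replicate block, 9 members were higher and 44 lower, with a median of -0.46. Same-numbered libraries did not deviate together (correlations of 0.0134, 0.0293 and -0.00250), so no shared effect of the replicate number was seen. This cannot show whether same-numbered libraries came from 1 culture. Leaving out each library in turn gave 8 to 9 members higher and 43 to 44 lower, and treated replicate 1 alone, whose treatment field matches its title, gave 8 and 43. Eef2kmt reversed with limma on FPKM (0.20 with a pseudocount of 1 with or without the filter, and 0.21 with a pseudocount of 0.1). With DESeq2, 1 gene of termination and recycling was higher, and with library totals 2 kinase or phosphatase genes and 1 hypusine or diphthamide gene. Computed from CPM, the differences of paralogue shares were 1.2 percentage points for Eef1a2, 3.72 for Eif5a2, 5.90 for Eif4g3 and 1.83 for Eif1a; the construction of the scale, without length, is what changed. The log2 change of the summed gamma subunits of eIF2 was 0.02 in CPM. Depth limits Eif4e3, at 3.20 CPM or less on average.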

Other observations

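Chosen after their values were seen, 2 further genes bear on the same machinery. Eefsec, which encodes the elongation factor that delivers selenocysteine and whose symbol falls outside the rule used for the members, stood at 25.2, 24.5 and 22.1 CPM in the DMSO libraries and 13.7, 12.2 and 14.7 CPM in the treated ones, with the treated libraries all lower (log2 fold change -0.82 ± 0.0824, edgeR adjusted p = 1.77e-15). Mycn, the relative of Myc that is active in neural progenitors, stood at 9.69, 10.2 and 10.6 CPM with DMSO and 3.16, 2.8 and 3.34 CPM with PluriSIn#2, again without overlap (log2 fold change -1.72 ± 0.139, edgeR adjusted p = 4.50e-20).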
